A study of Mus musculus with 4 samples.

Results

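Semaphorins, ephrins, Slits and netrins are ligands that steer growing axons, migrating cells and blood vessels, and this account covers their genes together with those of their receptors, the plexins, neuropilins, Eph receptors and Robos. Members were chosen by gene symbol alone, from probe sets that carry a single symbol, and each gene took its probe set with the highest mean level. That gave 63 genes of 19938 measured. They comprised 20 semaphorins of classes 3 to 7, 9 plexins, 2 neuropilins, 8 ephrins, 13 Eph receptors, 3 Slits, 4 Robos and 4 netrins, and thus 35 ligands and 28 receptors. The Eph receptor gene Ephb2 was not analysed here.

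RNA from C57BL/6 mouse cells in culture was hybridised to Affymetrix gene arrays, with 1 array for each of 4 groups. The first was embryonic stem (ES) cells, for which the labels name no line and no culture conditions. The second was osteoblasts, released by trypsin and collagenase from the skull bones of newborn mice, the last digestions being pooled, and grown in DMEM with fetal calf serum. The remaining groups were plastic-adherent mesenchymal stem cells (MSC) taken from flushed leg bone marrow (thigh and shin) and grown in Coon's modified F12 medium with fetal calf serum. One of these MSC groups had no added growth factor, and the other had bFGF, the basic fibroblast growth factor also called FGF2, at 1 ng/ml. The labels give no passage, no number of mice and no age of the MSC donors. As each group had a single array, neither a test nor an SD could be computed, and every difference below is between single arrays.

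Levels are the deposited RMA values on a log2 scale, so a difference of 1 is 2-fold. Differences of 2-fold or more were counted only where the brighter of the 2 arrays exceeded its floor. The floor is the median over all single-symbol probe sets of an array and was 6.46 in ES cells, 6.46 in osteoblasts, 6.29 in MSC without bFGF and 6.32 in MSC with bFGF. A level under the floor is little more than background, and the size of a difference that reaches under it depends on that background. Levels are compared between arrays for one gene and never between genes.

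Semaphorins signal mainly through plexins. Most secreted class 3 semaphorins need a neuropilin as the binding subunit, whereas membrane-bound semaphorins bind plexins directly, and active plexins change the cytoskeleton through small GTPases and integrins. Ephrins and Eph receptors both sit on cell surfaces and signal at contacts between cells, in both directions. Slits bind Robos, and netrins bind Dcc, neogenin and Unc5 receptors. In bone, Sema3a from cells of the osteoblast lineage and Sema4d from osteoclasts are known regulators of bone formation and resorption, and ephrin-B2 with EphB4 is known for signalling between osteoclasts and osteoblasts.

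The markers of the labelled cells were above the floor in part. Of 11 pluripotency genes 8 lay above the floor in the ES cell array, against 1 in osteoblasts and 1 and 2 in MSC without and with bFGF. Of 8 osteoblast markers 3 did in the osteoblast array, and also 3 in ES cells, 3 in MSC without bFGF and 1 in MSC with bFGF. The 3 in the osteoblast array were Col1a1 (12.60), Dlx5 (7.49) and Pth1r (6.75). Col1a1 and Dlx5 were each 2-fold or more higher there than in every other array. The mineralization enzyme gene Alpl (6.03) and the osteoblast factor Sp7 (5.36) were among those under the floor in osteoblasts. Of 12 marrow stroma markers 7 and 9 lay above the floor in MSC without and with bFGF, against 9 in ES cells and 10 in osteoblasts, so neither the osteoblast nor the stroma count set the labelled arrays apart. Macrophage markers differed widely between the arrays. The median level of 20 such genes was 7.40 in ES cells, 11.20 in osteoblasts, 6.54 in MSC without bFGF and 9.51 in MSC with bFGF, single genes ranged from 5.69 to 11.14, 8.43 to 13.37, 4.63 to 8.38 and 4.92 to 11.16, and 15, 20, 11 and 18 of the 20 lay above the floor. Endothelial markers had 2 of 12 genes above the floor in each array except that of MSC with bFGF, which had 0, and neural markers had 3, 3, 1 and 2 of 10. Schwann cell and glia markers had 4, 2, 2 and 2 of 6. Cell cycle genes had 9, 9, 3 and 7 of 9, and 4 of them were counted higher in MSC with than without bFGF. In such bulk samples fewer cells of a type and less RNA per cell cannot be told apart.

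Of the 63 genes 44 lay above the floor in at least 1 array and 23 in all 4, against 11678 and 8233 of all 19938 genes. There were 40 above it in ES cells, 36 in osteoblasts, 29 in MSC without bFGF and 31 in MSC with bFGF. Of all 19938 genes 9908, 9964, 9905 and 9880 lay above it in the same order. Of the 44 genes 27 were counted at 2-fold in at least 1 of the 6 pairs of arrays, against 39.8% of all genes above the floor. The comparisons share arrays and are therefore not independent of each other.

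**Figure D1:**
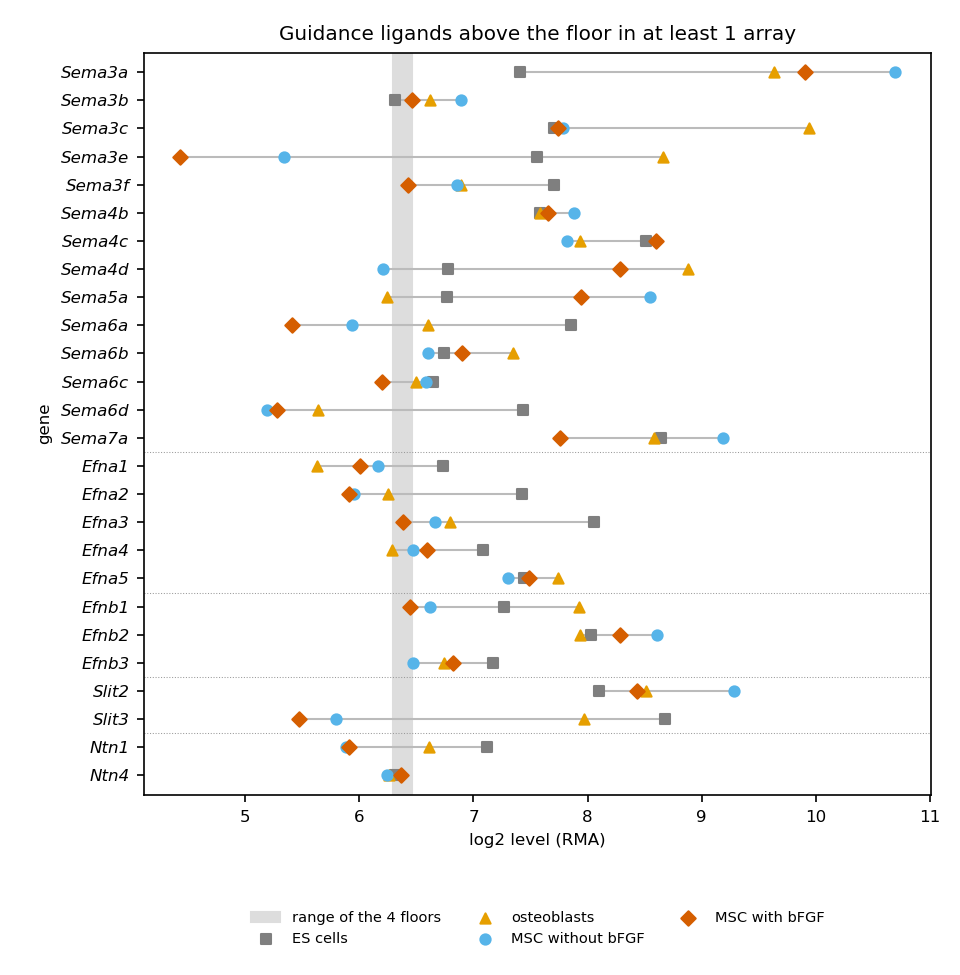
Log2 levels of the 26 guidance ligands that lay above the floor in at least 1 array, 1 point per array, with a grey line from the lowest to the highest array and a grey band over the range of the 4 floors. Sema4d stood at 8.29 in MSC with bFGF and under the floor in MSC without, and Slit3 and Sema3e lay under the floor in both MSC arrays only.

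**Figure D2:**
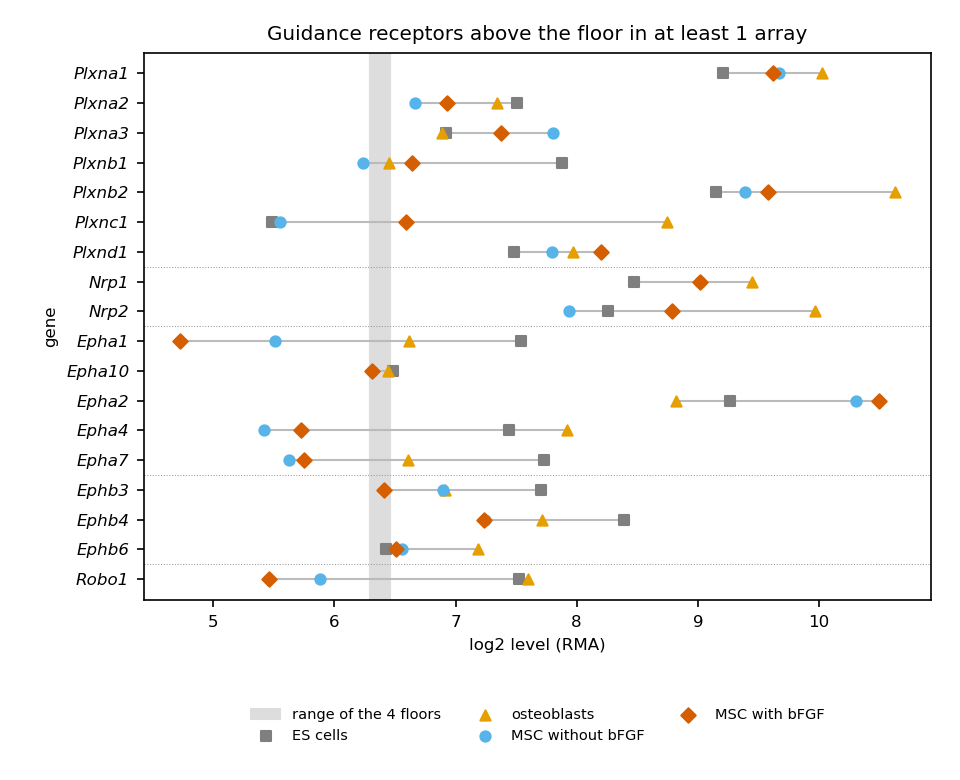
Log2 levels of the 18 guidance receptors above the floor in at least 1 array, drawn as for the ligands. Epha2 had both MSC arrays above both controls, while Epha4, Epha1 and Robo1 had both MSC arrays under the floor.

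Upstream sequences of 4 members are given here because these genes carry the differences described below. Plxnc1 and Sema7a, a receptor and its ligand, differed between the MSC arrays in opposite directions, and Sema5a and Epha2 were the members 2-fold or more higher in both MSC arrays than in both controls. Each sequence is the 250 bases before a RefSeq transcript start in GRCm38.p6, 5' to 3' on the gene's own strand. Capitals mark matches, on either strand, to the GC box GGGCGG, the PU.1 core GAGGAA, the AP-1 site TGANTCA or the TATA box TATAAA; neighbouring matches can overlap.
Plxnc1, chr10:94944846-94945095, minus strand: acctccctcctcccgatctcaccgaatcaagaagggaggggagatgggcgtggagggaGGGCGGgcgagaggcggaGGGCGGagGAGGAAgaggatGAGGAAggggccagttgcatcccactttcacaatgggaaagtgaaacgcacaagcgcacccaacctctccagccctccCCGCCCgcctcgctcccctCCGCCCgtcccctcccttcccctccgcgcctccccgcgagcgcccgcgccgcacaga
Sema7a, chr9:57939862-57940111, plus strand: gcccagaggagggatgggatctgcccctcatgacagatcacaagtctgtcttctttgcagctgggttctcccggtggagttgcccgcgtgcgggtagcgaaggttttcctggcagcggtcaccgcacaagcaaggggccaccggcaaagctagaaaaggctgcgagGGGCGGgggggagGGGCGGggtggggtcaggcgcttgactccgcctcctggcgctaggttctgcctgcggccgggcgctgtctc
Sema5a, chr15:32244563-32244812, plus strand: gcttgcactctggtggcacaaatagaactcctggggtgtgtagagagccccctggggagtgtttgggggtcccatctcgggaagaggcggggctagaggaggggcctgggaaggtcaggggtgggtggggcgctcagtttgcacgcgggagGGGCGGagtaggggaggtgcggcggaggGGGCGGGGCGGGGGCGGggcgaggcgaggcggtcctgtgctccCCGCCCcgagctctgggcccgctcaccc
Epha2, chr4:141300971-141301220, plus strand: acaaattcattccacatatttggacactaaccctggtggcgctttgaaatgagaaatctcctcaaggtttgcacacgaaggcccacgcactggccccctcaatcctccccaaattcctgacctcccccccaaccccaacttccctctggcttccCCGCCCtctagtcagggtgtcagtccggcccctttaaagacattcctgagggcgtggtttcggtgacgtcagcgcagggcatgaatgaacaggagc
The Plxnc1 window held 4 GC boxes and 2 PU.1 cores, PU.1 being the transcription factor of myeloid cells. The Sema7a window held 2 GC boxes, that of Sema5a 5 and that of Epha2 1, and these 3 windows held none of the other motifs. Sema4d has 3 such windows in the table, of which 1 held a GC box, 1 an AP-1 site and 1 none of the motifs. A window was found for 55 of the 63 genes, 71 windows in all. Among these, 71.8% held a GC box, 29.6% a PU.1 core, 4.23% an AP-1 site and 2.82% a TATA box, against 32.7%, 23.3%, 6.75% and 12.4% of all 32851 windows of the same length. A match is a run of letters and was not tested for binding.

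For MSC with against without bFGF, the comparison that the design of the series names, few guidance genes differed by 2-fold. The leukocyte semaphorin Sema4d and the plexin Plxnc1 were higher with bFGF, and Sema7a, the ligand of plexin C1, was lower. These were 2 genes higher and 1 lower of 33 above the floor, against a background of 4.09% of all genes higher and 0.467% lower. The median difference over all 63 genes was -0.05 and over all 19938 genes -0.06.

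Sema4d, a membrane-bound semaphorin of lymphocytes and osteoclasts that acts on plexin B1 and Cd72, stood at 6.78 in ES cells, 8.88 in osteoblasts, 6.20 in MSC without bFGF and 8.29 in MSC with bFGF. It was thus high in osteoblasts and MSC with bFGF and under the floor in MSC without it. The difference with bFGF was 2.08, or 4.24-fold, and 142 of 10483 genes above the floor, Sema4d included, had one at least as large. A second probe set of Sema4d, tied by the platform table to 1 predicted transcript only, stood at 6.27, 7.03, 6.39 and 6.41 in the same order and differed by 0.03, so the difference was seen at one of the 2 probe sets.

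Plxnc1 stood at 5.48 in ES cells, 8.75 in osteoblasts, 5.55 in MSC without bFGF and 6.59 in MSC with bFGF. The last level was just above the floor and its difference of 1.04, 2.05-fold, just past the threshold. Sema4d and Plxnc1 were both highest in osteoblasts and next highest in MSC with bFGF. Other members had the same arrays first and second, among them Nrp2, Plxnb2, Sema6b and Efna5, as did the median macrophage marker. Of the macrophage markers 18 of 20 were 2-fold or more higher with bFGF, with a median difference of 2.77. The mannose receptor Mrc1 (4.92) and Aif1 (5.84) were the 2 under the floor in MSC with bFGF. The myeloid factor Spi1, which encodes PU.1, stood at 5.52 without and 7.75 with bFGF. The part of macrophages in the values of Sema4d and Plxnc1 was not tested.

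Sema7a, a lipid-anchored semaphorin that binds plexin C1 and beta 1 integrins, stood at 8.64 in ES cells, 8.58 in osteoblasts, 9.19 in MSC without bFGF and 7.76 in MSC with bFGF. It lay above the floor in all 4 arrays, highest in MSC without and lowest in MSC with bFGF. The difference was -1.44, 2.70-fold, and of all genes above the floor only 6, Sema7a included, differed by as much in this direction. Of the integrin genes among its other partners, Itgb1 stood at 10.82 without and 10.67 with bFGF, and Itga1 lay under the floor in both arrays (5.35 and 4.25), where its difference cannot be read.

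Several members lay just inside the 2-fold lines. Nrp2, the neuropilin that binds Sema3f and VEGF-C, stood at 7.94 without and 8.78 with bFGF, a difference of 0.85. Sema4c, a ligand of plexin B2, was at 7.82 and 8.60, a difference of 0.78. On the other side, the Robo ligand Slit2 was at 9.28 without and 8.44 with bFGF, a difference of -0.85, and the neuropilin 1 ligand Sema3a at 10.70 and 9.91, a difference of -0.79. Nrp1 itself stood at 9.02 and 9.01. Among 1196 olfactory and vomeronasal receptor genes, which should be silent in these cells, 95% of differences between the MSC arrays lay from -0.97 to 0.67, and that difference had an SD of 0.29 between probe sets that share a gene. Of these receptor genes only 12 lay above the floor, and neither yardstick measures variation between cultures. The same 95% range ran from -0.71 to 1.09 in MSC without bFGF minus ES cells. In MSC without bFGF minus osteoblasts it ran from -0.76 to 1.01.

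**Figure D3:**
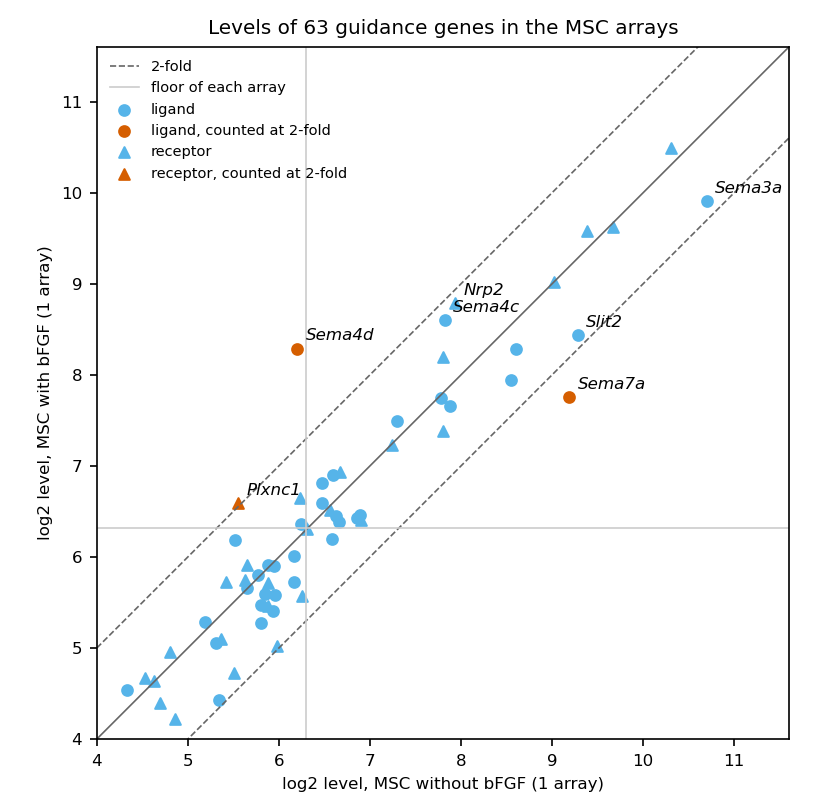
Log2 levels of the 63 guidance genes in MSC without bFGF (horizontal) and with bFGF (vertical), circles for ligands and triangles for receptors, with the line of equality, dashed 2-fold lines and the floor of each array in grey. Sema4d (6.20 and 8.29), Plxnc1 (5.55 and 6.59) and Sema7a (9.19 and 7.76) lay outside the 2-fold lines; the other points lay between them.

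Against both controls, the MSC arrays shared a set of lower receptors and ligands that included a Slit with its receptor. Slit3, Robo1, Sema3e, Epha4 and Epha1 were 2-fold or more lower in both MSC arrays than in both controls, and Sema5a and Epha2 were 2-fold or more higher. The 5 lower genes were out of 33 members above the floor, against 3.22% of all genes, and the 2 higher genes were out of 27, against 3.11%. With a floor at the 75th percentile 0 of the lower genes and 1 of the higher genes were counted.

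Slit3, a secreted Robo ligand, stood at 8.68 in ES cells, 7.97 in osteoblasts, 5.80 in MSC without bFGF and 5.47 in MSC with bFGF. Robo1, the widely expressed Slit receptor, stood at 7.52, 7.60, 5.88 and 5.46 in the same order. Both genes were thus above the floor in the controls and under it in both MSC arrays. Slit2 did not share this pattern, with levels of 8.10, 8.51, 9.28 and 8.44, and was 2-fold higher in MSC without bFGF than in ES cells (1.18, or 0.99 once a loess curve was removed). Slit1 and the receptors Robo2, Robo3 and Robo4, also 1 of the 12 endothelial markers, were under the floor in all 4 arrays, so no Robo gene had a level above the floor in either MSC array. Of the 9 measured genes of the list of Slit and Robo partners and effectors, 2 were lower than in ES cells in each MSC array, the Robo GTPase regulator Srgap1 (-1.18 without and -1.58 with bFGF) and the actin regulator Enah (-1.39 and -1.30). The shares of all genes lower in these comparisons were 11.8% and 10.6%.

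Sema3e, a class 3 semaphorin that binds plexin D1 without a neuropilin, had the largest negative difference among the members. It stood at 7.55 in ES cells, 8.66 in osteoblasts, 5.34 in MSC without bFGF and 4.42 in MSC with bFGF, and differed from osteoblasts by -3.33 and -4.24. Its receptor gene Plxnd1 stood at 7.49, 7.97, 7.80 and 8.20, above the floor in every array and within 2-fold throughout. Epha4, a receptor that binds ephrins of both classes, stood at 7.44, 7.92, 5.42 and 5.72. Epha1 stood at 7.54, 6.61, 5.51 and 4.72, its osteoblast level being close to the floor.

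Sema5a, a transmembrane semaphorin with thrombospondin repeats, stood at 6.77 in ES cells, 6.24 in osteoblasts, 8.55 in MSC without bFGF and 7.94 in MSC with bFGF. Both MSC arrays were above both controls, by 1.17 at the narrowest pair and 2.31 at the widest. Epha2, the receptor of ephrin-A1, stood at 9.27, 8.82, 10.30 and 10.49. Its narrowest difference, MSC without bFGF minus ES cells, was 1.04 and became 0.94 with centring, 0.84 with a loess curve removed and 0.91 with quantile normalization repeated, so Epha2 was no longer counted there. The value of 1.04 also lay within the 95% range of the olfactory and vomeronasal receptor genes in that comparison, which reached 1.09. The main ligand gene of Epha2, Efna1, was under the floor in osteoblasts and both MSC arrays (5.63, 6.16 and 6.01) and at 6.73 in ES cells.

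**Figure D4:**
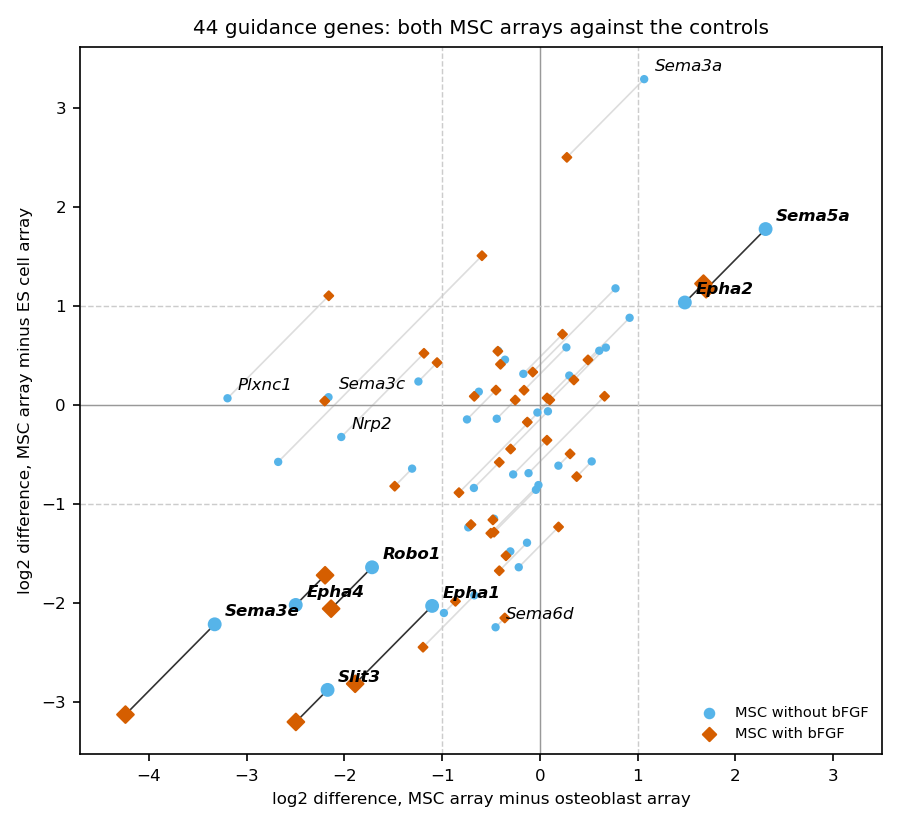
Log2 difference of each MSC array from the osteoblast array (horizontal) and from the ES cell array (vertical) for the 44 guidance genes above the floor in at least 1 array; a line joins the MSC arrays without (circle) and with (diamond) bFGF of a gene, and dashed lines mark 2-fold. The 7 genes in bold had both MSC arrays past 2-fold from both controls, Sema5a and Epha2 at the upper right and Slit3, Sema3e, Robo1, Epha4 and Epha1 at the lower left; both axes share the MSC level.

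Compared with osteoblasts, more members were lower than higher in each MSC array. In MSC without bFGF 11 of 38 members above the floor were lower and 3 higher, against 13.3% and 8.17% of all genes, and in MSC with bFGF 11 of 40 were lower and 2 higher, against 9.71% and 7.5%. The median over all 63 members was -0.34 without and -0.43 with bFGF, and over all genes 0.03 and -0.07. Both MSC arrays were lower for 10 members and higher for 2, a count against osteoblasts alone that was chosen after seeing the data. No share of all genes is given for this count, so it cannot be set against a background.

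Besides the genes above, the members lower in both MSC arrays were Sema3c, Nrp2, Plxnb2, Plxnc1 and Efnb1. Sema3c, a neuropilin ligand known from heart and vessel development, stood at 7.70 in ES cells, 9.94 in osteoblasts, 7.78 in MSC without bFGF and 7.74 in MSC with bFGF, so osteoblasts alone were high. Nrp2 stood at 8.26, 9.97, 7.94 and 8.78 and differed from osteoblasts by -2.03 without and -1.19 with bFGF. Plxnb2, the receptor of Sema4c, stood at 9.15, 10.63, 9.39 and 9.58. The ephrin ligand gene Efnb1 stood at 7.27, 7.93, 6.62 and 6.44.

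Plxnc1 differed from osteoblasts by -3.20 without and -2.16 with bFGF. Sema4d was counted lower in MSC without bFGF (-2.68) and not in MSC with bFGF (-0.59). Macrophage markers lay lower in the same comparisons, with 20 of 20 counted and a median of -3.88 without bFGF and 13 of 20 and -1.26 with it, and their part in these values was not tested. Of the 12 stromal markers, 11 of them above the floor in each comparison, 7 were lower without and 8 with bFGF. Kitl was the 1 counted higher, by 2.57 and 2.98.

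Sema3a, known as a product of the osteoblast lineage that protects bone, stood at 7.41 in ES cells, 9.63 in osteoblasts, 10.70 in MSC without bFGF and 9.91 in MSC with bFGF. It was higher than in osteoblasts by 1.07 in MSC without bFGF, a value that was 0.98 with centring and 0.91 with a loess curve removed, and by 0.28 in MSC with bFGF. Its neuropilin gene Nrp1 stood at 8.47, 9.44, 9.02 and 9.01, and the A-type plexin gene Plxna1 at 9.21, 10.02, 9.67 and 9.62, each within 2-fold throughout. Of the other A-type plexin genes, Plxna2 and Plxna3 were also within 2-fold, and Plxna4 was under the floor in all 4 arrays.

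Compared with ES cells, at least 1 member of each family except the neuropilins was lower in MSC. Among them were 4 or 5 Eph receptors and 2 class 6 semaphorins. Semaphorins, plexins, Eph receptors and Slits also held a member counted higher in at least 1 MSC array. Only 1 Robo gene and 1 or 2 netrin genes lay above the floor in these comparisons. In MSC without bFGF 13 of 42 members above the floor were lower and 4 higher, against 11.8% and 10.4% of all genes. In MSC with bFGF 15 of 44 were lower and 5 higher, against 10.6% and 11.3%. The median over the members was -0.15 and -0.40, and over all genes 0.08 and 0.01. Genes above the floor had a median shift of 0.12 in MSC with bFGF minus ES cells, and once it was removed Plxnc1 (1.10) stood at 0.99 and was no longer counted.

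Of 8 Eph receptors above the floor, 4 were lower than in ES cells without bFGF and 5 with it, and Epha2 alone was higher. Epha7 stood at 7.73 in ES cells, 6.61 in osteoblasts, 5.63 in MSC without bFGF and 5.75 in MSC with bFGF. Ephb4, the receptor of ephrin-B2, stood at 8.39, 7.71, 7.24 and 7.23, above the floor in all 4 arrays and lower in both MSC arrays by 1.15 and 1.16 on the log2 scale. Its ligand gene Efnb2 stood at 8.03, 7.93, 8.61 and 8.28, within 2-fold throughout. Ephb3 stood at 7.71, 6.91, 6.90 and 6.41 and was counted lower in MSC with bFGF only; the difference between the MSC arrays was -0.49.

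All 8 ephrin genes lay above the floor in ES cells. Efna1, Efna3 and Efna4, which neighbour each other in GRCm38.p6 with no protein-coding gene between Efna1 and Efna3 or between Efna3 and Efna4, were each highest in the ES cell array. Efna3 stood at 8.05 in ES cells, 6.79 in osteoblasts, 6.66 in MSC without bFGF and 6.38 in MSC with bFGF. Efna4 stood at 7.09, 6.28, 6.47 and 6.59, within 2-fold throughout. Efna2 stood at 7.43, 6.25, 5.95 and 5.90, above the floor in ES cells alone.

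Class 6 semaphorins are transmembrane ligands of A-type plexins. Sema6d stood at 7.43 in ES cells, 5.64 in osteoblasts, 5.19 in MSC without bFGF and 5.28 in MSC with bFGF, and was above the floor in ES cells alone. Sema6a stood at 7.86, 6.60, 5.93 and 5.41. Both were lower in each MSC array than in ES cells, by 1.92 to 2.45 on the log2 scale. Sema3f, a ligand of neuropilin 2, stood at 7.71, 6.89, 6.85 and 6.42 and was counted lower in MSC with bFGF (-1.29).

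Plxnb1, the plexin that Sema4d binds, stood at 7.88 in ES cells, 6.45 in osteoblasts, 6.24 in MSC without bFGF and 6.64 in MSC with bFGF. Plxnb1 was 2-fold or more below its ES cell level in every other array, and lowest in MSC without bFGF. It lay just under the floor in osteoblasts and MSC without bFGF and above it in MSC with bFGF. Sema4d was high in osteoblasts and MSC with bFGF and under the floor in MSC without it. The leukocyte receptor Cd72, which also binds Sema4d, stood at 6.65, 10.78, 6.17 and 9.69. Ntn1, the founding netrin, stood at 7.12, 6.61, 5.88 and 5.91, so that neither MSC array exceeded its floor. Neo1, a netrin receptor, was higher in both MSC arrays than in both controls (8.30, 8.53, 10.20 and 9.72), whereas Dcc was under the floor throughout.

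The members that were higher in MSC than in ES cells were Sema3a (3.29 without and 2.50 with bFGF), Sema5a, Epha2 and, in 1 array each, Slit2 without bFGF and Sema4d and Plxnc1 with bFGF. For Sema4d the value of 1.51 was 0.82 as the mean of both its probe sets. Macrophage markers differed by a median of -0.55 without and 2.06 with bFGF in these comparisons, and their part in the values of Sema4d and Plxnc1 was not tested.

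The controls themselves differed in 14 of 43 members above the floor. In osteoblasts 7 were higher than in ES cells and 7 lower, against 12.3% and 8.83% of all genes. Class 3 semaphorins and a neuropilin made up 4 of the higher genes: Sema3c by 2.24, Sema3a by 2.23, Sema3e by 1.11 and Nrp2 by 1.71. Plxnc1 (3.26), Sema4d (2.10) and Plxnb2 (1.48) were the others, in a comparison in which 20 of 20 macrophage markers were higher with a median of 3.40; their part was not tested. The lower genes were Sema6d (-1.79), Plxnb1 (-1.42), Efna3 (-1.26), Sema6a (-1.25), Efna2 (-1.18), Epha7 (-1.12) and Efna1 (-1.10).

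**Figure D5:**
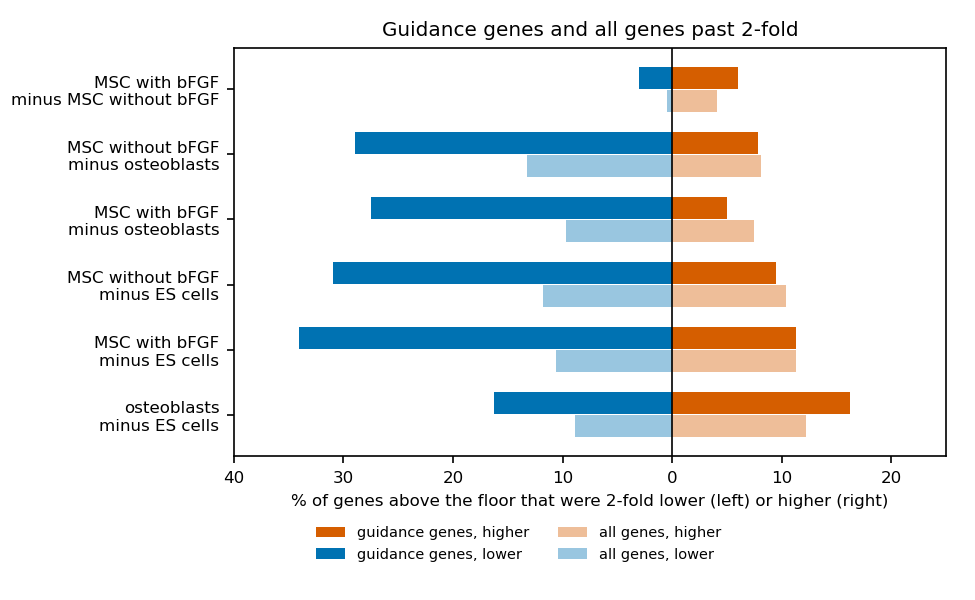
Share of genes above the floor that were 2-fold lower (bars to the left) or higher (bars to the right) in each of the 6 comparisons, for guidance genes (dark) and for all genes (pale). Against each control the lower share of the guidance genes lay between 27.5% and 34.1% in the MSC arrays, against 9.71% to 13.3% of all genes; the bars are shares of genes and carry no error.

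The remaining 36 members were counted in no comparison. A group of 17 genes lay above the floor in at least 1 array and had ranges over the 4 arrays of 0.13 to 0.97. Among these were Plxna1, Plxna2, Plxna3, Plxnd1 and Nrp1 on the receptor side and Sema4b, Sema4c, Efna5, Efnb2 and Efnb3 on the ligand side. A further 19 genes were under the floor in all 4 arrays, with levels from 4.22 to 6.41: Sema3d, Sema3g, Sema4a, Sema4f, Sema4g, Sema5b, Plxna4, Plxnb3, Epha3, Epha5, Epha6, Epha8, Ephb1, Slit1, Robo2, Robo3, Robo4, Ntn3 and Ntn5. Their ranges over the arrays ran from 0.35 to 2.13, the widest being that of Epha3 (6.35 in osteoblasts and 4.22 in MSC with bFGF). Under the floor, such differences cannot be read as differences between the cells.

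A list of 71 other measured genes of these pathways, co-receptors and intracellular effectors, gave 8 genes higher and 0 lower of 58 above the floor in MSC with against without bFGF. The shares of all genes were 4.09% higher and 0.467% lower. Of the 8, 5 came from the part of the list grouped as semaphorin receptors and co-receptors. They were Cd72 (3.52), the myeloid adaptor Tyrobp (2.57), the neural adhesion molecule L1cam (1.71), the phosphatase Ptprj (1.67) and the myeloid receptor Trem2 (1.47). The others were the exchange factor Vav3 (1.94), the oxidoreductase Mical1 (1.36) and the kinase Fes (1.16). Tyrobp is also 1 of the 20 macrophage markers, of which 18 were higher in this comparison; their part in these values was not tested.

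Set against osteoblasts, the list gave 8 genes higher and 14 lower of 62 for MSC without bFGF, against 8.17% and 13.3% of all genes, and 7 and 14 of 60 for MSC with bFGF, against 7.5% and 9.71%. The adhesion molecule Nrcam, a partner of neuropilins, was higher in both MSC arrays (3.74 and 3.90), as were Crmp1, a mediator of semaphorin signals (1.94 and 2.08), the receptor kinase Met (1.68 and 1.76) and the Ras regulator Rasa1 (1.57 and 1.13). The lower genes were led in MSC without bFGF by Cd72 (-4.61), Tyrobp (-3.80), Ptprj (-2.89), Vav3 (-2.82) and Trem2 (-2.68), and Cd72 (-1.09), Tyrobp (-1.23), Ptprj (-1.22) and Trem2 (-1.21) were counted lower with bFGF too. Macrophage markers were lower in the same comparisons, 20 and 13 of 20, and their part was not tested. Others lower in both arrays included the netrin receptor Unc5c (-1.60 and -1.94), the guidance protein Flrt2 (-2.20 and -2.29) and the integrin gene Itga1, which stood at 7.26 in osteoblasts, 5.35 in MSC without bFGF and 4.25 in MSC with bFGF. Against ES cells 9 genes were higher and 7 lower of 58 without bFGF, where all genes gave 10.4% and 11.8%. With bFGF 12 were higher and 6 lower of 57, where all genes gave 11.3% and 10.6%, so the lower counts lay near the background. Nrcam was again higher in both arrays (2.67 and 2.83), and the netrin receptor Unc5b lower (-1.15 and -1.57). In MSC with bFGF only, Cd72 (3.04), Tyrobp (2.21) and Trem2 (1.65) were also counted higher. Of the 20 macrophage markers 15 were higher and 2 lower in that comparison, with a median of 2.06. Their part was not tested.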

How the data were processed

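Gene expression was measured on 4 Affymetrix arrays, 1 per group. Per the submitters' processing notes the authors ran RMA in Affymetrix Expression Console, which corrects background, equalises the distributions of the arrays and summarises probe sets. Deposited levels are read as log2 because they range from 1.40 to 14.28. Neither a tool version nor a genome build is given in the sources used here. RMA holds the arrays' distributions together, so a general change in RNA per cell would not show. Of 35556 probe sets 21789 had a single symbol in the platform table, 1621 several and 12146 none. All 67 probe sets of the 63 genes matched the RefSeq table of GRCm38.p6 by Entrez identifier, and 0 symbols changed.

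Differences, floors and counts were computed with Python 3.11.15, numpy 2.4.6, pandas 2.3.3 and statsmodels 0.14.6, and the counting was tested on simulated data. Promoter windows came from RefSeq. The members, the marker and pathway lists and the rule for naming genes were chosen with earlier results of these data known. All members could be named. Of the other lists some genes past 2-fold were named, not strictly by size of difference. Partners of members and single markers were also named, chosen after their values were seen. Alternatives were the mean of probe sets, no floor or one at the 75th percentile, 1.5-fold, centring, a loess curve (span 0.3) and repeated quantile normalization. The number of arrays limits the precision.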

Additional observations from a re-analysis of the deposited data

How the results depend on the processing

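No paired analysis was possible because each group had 1 array, and no replicate could be left out. Of the counts of members higher and lower in each comparison and in both MSC arrays against both controls, 14 in all, each stayed within 1.5 times its value with the mean of probe sets and with no floor. At 1.5-fold, MSC with minus without bFGF gave 4 higher and 4 lower members, MSC without bFGF minus osteoblasts 7 higher and 17 lower, MSC without bFGF minus ES cells 20 lower, osteoblasts minus ES cells 12 higher and 13 lower, and 9 members were lower in both MSC arrays than in both controls. With the floor at the 75th percentile 1 member was higher with bFGF. Against osteoblasts 6 were then lower without bFGF, and 5 lower and 1 higher with it. Against ES cells 3 were lower without bFGF, and 3 lower and 3 higher with it. In osteoblasts 1 was lower than in ES cells. In both MSC arrays 1 member was higher and 0 lower than in both controls. The number of genes above this higher floor is not given here, and why these counts fell was not tested. Members higher in both MSC arrays than in both controls numbered 1 with centring, a loess curve removed or quantile normalization repeated, and members higher in MSC without bFGF than in ES cells 2 with a loess curve removed. An alternative chosen after seeing the data gave 13 members lower in both MSC arrays than in ES cells alone and 10 than in osteoblasts alone. The counts under these alternatives show only how far the numbers of members moved. They cannot be set against a background, as no share of all genes is given at these settings. No called difference of a member changed sign under any of the 4 alternatives that alter it.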

Other observations

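Other families with roles in cell contact and guidance, picked by name after results were known (FLRT genes and Cntn2 are also in the pathway list), had a smaller share of genes with signal: of 33 teneurin, latrophilin, FLRT, Slitrk, delta protocadherin and contactin genes 16 lay above the floor in at least 1 array. The teneurin gene Tenm3, which encodes a synaptic adhesion protein, stood at 7.03 in ES cells, 7.83 in osteoblasts, 4.60 in MSC without bFGF and 4.71 in MSC with bFGF, under the floor in both MSC arrays. Tenm4 stood at 7.09, 7.19, 7.22 and 7.51. The protocadherin gene Pcdh19 was at 6.80, 8.58, 8.81 and 7.97, and Adgrl2, a latrophilin that binds teneurins and FLRT proteins, at 9.90, 9.29, 9.77 and 9.45.

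Among members with several probe sets, both probe sets of Sema6b held identical values in all 4 arrays and are not separate measurements. The second probe set of Ephb1 differed by -1.07 between MSC with and without bFGF and the one used by 0.15, all with levels under the floor.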
